A study of Mus musculus with 24 samples.

Results

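The genes examined were 10 feedback genes of the ERK pathway, namely the MAPK phosphatases Dusp4, Dusp5 and Dusp6, the Sprouty genes Spry1, Spry2 and Spry4, the Sprouty-related genes Spred1 and Spred2, and the ETS transcription factors Etv4 and Etv5. They were chosen by name, as genes whose mRNA is commonly read as output of ERK signalling, from the 39017 genes of the count files, and all 10 had enough counts to be tested. RNA-Seq was performed in NIH 3T3 cells, an immortalized mouse embryonic fibroblast line, in 24 libraries, 3 for each of 8 groups. The cells had been stably transduced with retroviral pBabeNeo vectors, in triplicate. Cells with empty vector (EV), TAZ4SA, YAP5SA, YAP-TFE3 or TFE3 were collected 48 hours after reaching confluence. Another empty vector group (EVsub) and the cells with CAMTA1 were collected at sub-confluence. The cells with TAZ-CAMTA1 were taken here as a confluent group. TAZ4SA and YAP5SA are full-length TAZ and YAP in which serines phosphorylated by the Hippo kinases were replaced by alanine, and TAZ-CAMTA1 and YAP-TFE3 are the fusion proteins of epithelioid hemangioendothelioma, a vascular sarcoma. CAMTA1 was compared with EVsub and the other proteins with EV. The sources place lines with CAMTA1 at sub-confluence and do not say whether this covers TAZ-CAMTA1, so its values against EVsub are given as well.

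ERK is the last kinase of the cascade that runs from growth factor receptors through RAS, RAF and MEK. Active ERK induces transcription of its own inhibitors: DUSP phosphatases remove the activating phosphates from MAP kinases, Sprouty proteins act between the receptor and RAF, and SPRED proteins bind neurofibromin and restrain RAS. ETV4 and ETV5 belong to the PEA3 subfamily of ETS factors, which transmit FGF and ERK signals to the genome. Phosphorylated ERK itself was not measured in these libraries, so the values below are mRNA levels only, and in such bulk samples fewer cells with a transcript and less of it per cell cannot be told apart.

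The libraries held 16471181 to 30132586 counts (median 22298975), and the 10 genes had between 13 counts (Spry4) and 3031 counts (Dusp4) in a library. Levels are given as CPM, counts scaled to a common library total after TMM normalization. The 7 fibroblast markers summed to between 10400 and 34500 CPM in every library, while the 4 epithelial and 4 endothelial markers reached at most 9.06 and 12.0 CPM, and Epcam was at 0 throughout. Among the mouse genes of the expressed proteins, Wwtr1 was higher in TAZ4SA than in EV (log2 fold change 0.28, adjusted p = 0.0113). Camta1 was higher in CAMTA1 than in EVsub (1.07, adjusted p = 0.0019), whereas Yap1 was lower in YAP5SA than in EV (-0.86, adjusted p = 8.13e-09). Neither fusion protein nor TFE3 gave a called rise of its own mouse genes. These genes were also called against EV in groups without their own construct. Tfe3 was higher with TAZ4SA (0.58) and YAP5SA (0.87). Yap1 was lower with TAZ4SA (-0.69), TAZ-CAMTA1 (-0.25) and in EVsub (-0.37). The values are therefore no check of expression, and whether reads of a construct counted to the mouse gene was not tested. The paper shows the tagged proteins in these cells by Western blot. TAZ4SA replicate 3 stood nearest to EV for 6 of the 8 feedback genes called in that group, and for 58.7% of all genes called there.

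The activated full-length proteins lowered most of the feedback genes and raised Dusp4 and Spry1. With YAP-TFE3 6 of the 10 genes were called and with TAZ-CAMTA1 1, and fewer of all tested genes were called with the fusions too. A gene was called differentially expressed (DE) at an adjusted p under 0.05 in edgeR's quasi-likelihood test. With YAP5SA all 10 genes were DE against EV, 8 lower and 2 higher, where 71.2% of the 14361 tested genes were called (36.3% higher, 34.9% lower). With TAZ4SA 8 were DE, 6 lower and the same 2 higher, against 57.5% of tested genes (31.1% higher, 26.4% lower). YAP-TFE3 lowered 6 and raised none, against 15.3% of tested genes called (10.6% higher, 4.74% lower). TAZ-CAMTA1 lowered Spry2 alone, so that 1 of 10 was called against 21.5% of tested genes (12.5% higher, 8.98% lower). TFE3 changed 2 of the 10 genes against 3.38% of tested genes (2.36% higher, 1.02% lower).

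Markers of other cell types, at low levels, and some fibroblast markers moved with the expressed proteins. The endothelial markers summed to 0.127 to 0.221 CPM in EV, 8.31 to 12.0 CPM with TAZ4SA and 7.03 to 7.79 CPM with YAP5SA, against 1.62 to 2.61 CPM with TAZ-CAMTA1 and 1.07 to 1.70 CPM with YAP-TFE3, and both tested members, Kdr and Cdh5, were called higher with TAZ4SA, YAP5SA and YAP-TFE3, and Cdh5 alone with TAZ-CAMTA1. The epithelial markers summed to 0.133 to 0.338 CPM in EV and 7.51 to 9.06 CPM with YAP5SA. Their tested members were Krt14, which was 8.41 ± 0.846 CPM with YAP5SA and called higher with TAZ4SA, YAP5SA and TAZ-CAMTA1, and Cdh1, which was under 1 CPM in every group mean and called lower with both activated proteins and higher with both fusions. Itgam, a myeloid integrin gene, was at 0 to 0.0477 CPM in EV, 0.675 to 2.53 CPM with TAZ4SA and 0.950 to 1.37 CPM with YAP5SA, and at no more than 0.121 CPM with either fusion protein, and it was called higher with TAZ4SA (adjusted p = 8.7e-06) and YAP5SA (adjusted p = 9.62e-06) but not with the fusions. With TAZ4SA and YAP5SA 57.5% and 71.2% of all tested genes were called. Of the 7 fibroblast markers 3 were DE with TAZ4SA (1 higher, 2 lower) and 4 with YAP5SA (2 higher, 2 lower). The lower ones were Pdgfra, from 1190 ± 17.7 CPM in EV to 500 ± 81.5 CPM with TAZ4SA (log2 fold change -1.26, adjusted p = 0.000721) and 222 ± 67.3 CPM with YAP5SA (-2.43, adjusted p = 2.17e-07), and Pdgfrb, from 568 ± 86.4 CPM to 205 ± 12.7 CPM (-1.47, adjusted p = 3.69e-09) and 142 ± 4.40 CPM (-2.00, adjusted p = 1.69e-11). Other markers of this list went the other way. Mean Thy1 was above EV, at 120 CPM with TAZ4SA and 195 CPM with YAP5SA. Mean Vim was 3530 CPM in EV, 4390 CPM with TAZ4SA and 8080 CPM with YAP5SA. Of the 7 markers 3 were DE with TAZ-CAMTA1 (2 higher, 1 lower) and 4 with YAP-TFE3 (3 higher, 1 lower). Mean Col1a1 was 2670 CPM in EV, 4410 CPM with TAZ-CAMTA1 and 5230 CPM with YAP-TFE3. With the fusions Pdgfra was not called. Pdgfrb was lower with TAZ-CAMTA1 (-0.56, adjusted p = 0.00225) and with YAP-TFE3 (-0.37, adjusted p = 0.0459). The part of these changes in the results for the feedback genes was not tested.

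Over the 10 genes, the median log2 fold change against EV was -1.66 with YAP5SA, where the median of all tested genes was 0.01. It was -0.84 with TAZ4SA (0.05 over all tested genes), -0.51 with YAP-TFE3 (0.00), -0.35 with TFE3 (-0.02) and -0.02 with TAZ-CAMTA1 (0.00). With scaling by library totals alone, the median of all tested genes moved to -0.36 with YAP5SA and to -0.12 with TAZ4SA, and the called genes that were higher fell from 51.0% to 34.5% and from 54.1% to 41.9%. The feedback genes called in these comparisons kept their direction under that scaling as well. These comparisons share the EV libraries and are not independent of each other.

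**Figure D1:**
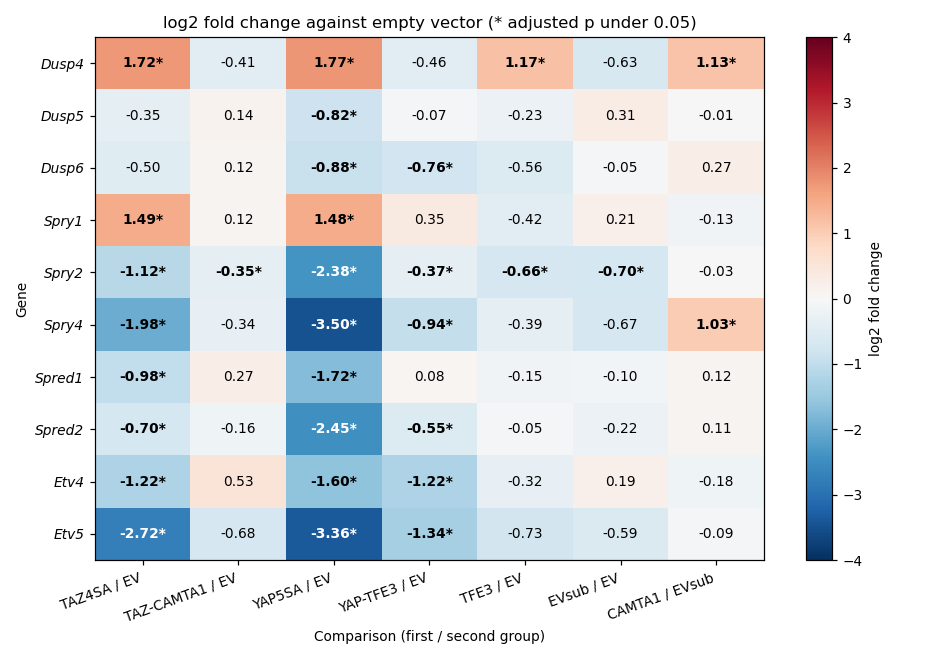
Heat map of the log2 fold change (colour and printed value) of each of the 10 genes (rows) in 7 comparisons with empty vector (columns), with an asterisk where the adjusted p was under 0.05. The YAP5SA column holds the deepest falls, -3.50 for Spry4 and -3.36 for Etv5, and Dusp4 and Spry1 are the only genes higher in the TAZ4SA and YAP5SA columns.

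Dusp4 rose with both activated proteins, whereas Dusp5 and Dusp6 were not called higher with either. DUSP4 is a nuclear phosphatase of ERK and other MAP kinases, encoded at chr8:34807297-34819894 of the mm10 genome. Its level was 35.6, 41.6 and 42.4 CPM in EV, against 140, 180 and 74.5 CPM with TAZ4SA. All 3 TAZ4SA libraries lay above every EV library, with replicate 3 the lowest, and the log2 fold change was 1.72 (SE 0.27, adjusted p = 1.26e-05). In YAP5SA the values were 156, 135 and 116 CPM, again above all of EV, with a log2 fold change of 1.77 (SE 0.27, adjusted p = 4.42e-06). The 27.3, 31.2 and 31.8 CPM with TAZ-CAMTA1 and the 20.7, 31.1 and 34.7 CPM with YAP-TFE3 were all below the EV range, but neither difference passed the test (-0.41, adjusted p = 0.300, and -0.46, adjusted p = 0.278).

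Dusp4 also responded to the full-length partners of the fusions. TFE3, a basic helix-loop-helix factor of the MiT/TFE family, gave 96.4, 87.8 and 84.5 CPM, all above EV (log2 fold change 1.17, SE 0.26, adjusted p = 0.0144). This call was lost without EV replicate 1 (adjusted p = 0.0716), EV replicate 3 (0.0505) or TFE3 replicate 1 (0.0532), although the groups did not overlap. CAMTA1 gave 79.3, 55.2 and 35.6 CPM, above the 30.3, 27.5 and 19.7 CPM of EVsub (log2 fold change 1.13, SE 0.27, adjusted p = 0.0252), a call lost without EVsub replicate 2 or 3 or CAMTA1 replicate 1 or 2 (adjusted p 0.0788 to 0.197) and in a fit of the 2 groups alone (0.168).

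Dusp5 and Dusp6 moved less and in the other direction. DUSP5 is a nuclear phosphatase selective for ERK, encoded at chr19:53529109-53542431, where an annotated antisense gene overlaps it, and whether the counting used strand is not given in the sources used here. It measured 18.9, 10.9 and 23.3 CPM in EV and 10.8, 9.57 and 9.63 CPM with YAP5SA, with every YAP5SA library below EV and a log2 fold change of -0.82 (SE 0.22, adjusted p = 0.00209). With TAZ4SA it was 12.3, 13.9 and 15.4 CPM, inside the EV range (-0.35, SE 0.22, adjusted p = 0.168), and EV replicate 2, its lowest EV library, decided this result, since without it the difference was called (-0.61, adjusted p = 0.0122), as it was with scaling by library totals alone (-0.53, adjusted p = 0.0491).

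DUSP6, the cytoplasmic phosphatase that is highly selective for ERK, is encoded at chr10:99263231-99267489. It measured 22.3, 22.2 and 26.8 CPM in EV. With YAP5SA the values were 13.5, 10.1 and 15.5 CPM, all lower, and the log2 fold change was -0.88 (SE 0.26, adjusted p = 0.00541). TAZ4SA gave 11.0, 16.0 and 23.2 CPM, of which replicate 3 overlapped EV, and the difference did not pass (-0.50, SE 0.26, adjusted p = 0.105). It passed without replicate 3 (-0.82, adjusted p = 0.0131) and when genes of low count were kept in the fit (-0.52, adjusted p = 0.0312). YAP-TFE3 gave 8.83, 17.5 and 15.4 CPM, all below EV, and its log2 fold change of -0.76 (SE 0.26) lay just inside the threshold (adjusted p = 0.04997). The removal of EV replicate 1, 2 or 3 or of YAP-TFE3 replicate 1 or 3 put it outside (adjusted p 0.0636 to 0.255), as did scaling by library totals alone (0.0708).

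**Figure D2:**
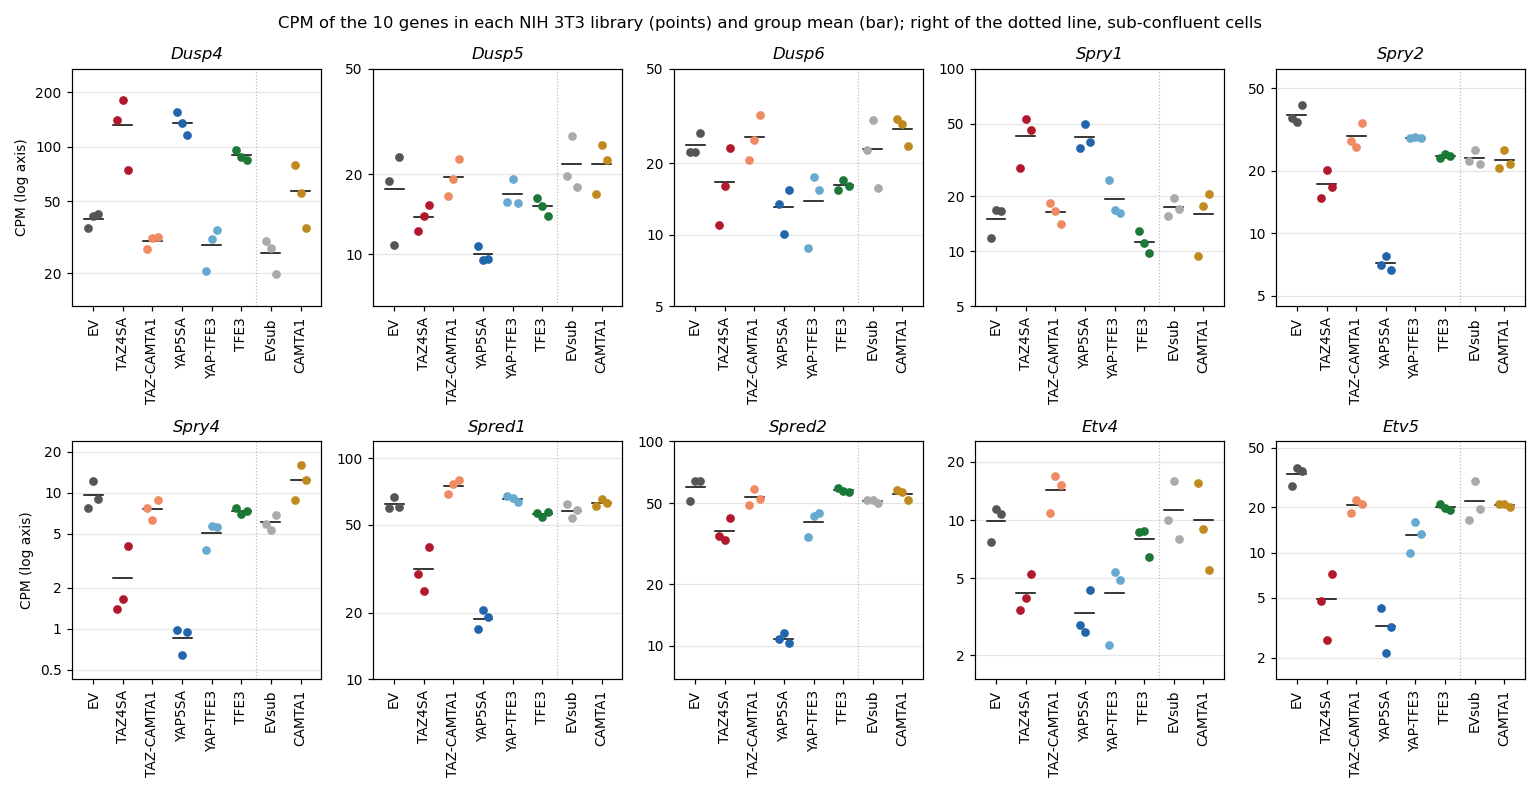
CPM on a log axis (y) of each of the 10 genes (panels) in the 8 groups (x), with 1 point for each library and a bar at the group mean of 3 libraries. Dusp4 and Spry1 sit highest with TAZ4SA and YAP5SA, and Spry2, Spry4, Spred1 and Spred2 sit lowest with YAP5SA.

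The Sprouty genes split in the same way, with Spry1 higher and Spry2 and Spry4 lower with the activated proteins. Spry1 lies at chr3:37639947-37644598 and overlaps an annotated transcript on the opposite strand. It measured 11.9, 16.8 and 16.6 CPM in EV, 28.7, 52.9 and 46.0 CPM with TAZ4SA and 36.8, 49.6 and 39.6 CPM with YAP5SA. Both sets of libraries were entirely above EV. The log2 fold changes were 1.49 (SE 0.25, adjusted p = 2.48e-05) for TAZ4SA and 1.48 (SE 0.25, adjusted p = 1.44e-05) for YAP5SA. With TAZ-CAMTA1 (18.3, 16.7 and 14.2 CPM) and YAP-TFE3 (24.7, 16.9 and 16.3 CPM) the libraries overlapped EV and no call was made.

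Spry2, at chr14:105891947-105896819, was the only one of the 10 genes DE in all 5 comparisons of a protein with EV, and it was lower in each. EV libraries had 36.0, 34.4 and 41.4 CPM. TAZ4SA libraries had 14.8, 20.2 and 16.6 CPM (log2 fold change -1.12, SE 0.13, adjusted p = 1.61e-07) and YAP5SA libraries 7.03, 7.75 and 6.65 CPM (-2.38, SE 0.13, adjusted p = 2.66e-12), the lowest of any group. TFE3 lowered it to 23.1, 24.1 and 23.5 CPM (-0.66, SE 0.12, adjusted p = 0.00305).

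The smaller falls of Spry2 with the fusion proteins were less secure. TAZ-CAMTA1 had 27.9, 26.0 and 33.9 CPM, all below EV (-0.35, SE 0.12, adjusted p = 0.0443), and YAP-TFE3 had 28.8, 29.0 and 28.7 CPM (-0.37, SE 0.12, adjusted p = 0.0418). The TAZ-CAMTA1 call was lost without EV replicate 1 or 3 or TAZ-CAMTA1 replicate 1 or 2 (adjusted p 0.0800 to 0.213), and that of YAP-TFE3 was lost without EV replicate 1 or 3 or any 1 YAP-TFE3 library (adjusted p 0.0753 to 0.214). Both were also lost when no filter on low counts was used (0.138 and 0.130), and the first in a fit of the 2 groups alone (0.0518). Spry2 was lower in EVsub than in EV too (22.3, 25.1 and 21.5 CPM, log2 fold change -0.70, SE 0.12, adjusted p = 0.000355), and against EVsub the sign for TAZ-CAMTA1 turned, with Spry2 higher by 0.35 (SE 0.12, adjusted p = 0.0455).

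The bases upstream of Spry1, Spry2 and the Sprouty-related gene Spred1 are shown because Spry1 rose where the others fell, and because Spry2 and Spred1 had 1 of the 2 closest pairs of profiles among the 10 genes. RefSeq promoter windows of GRCm38.p6 were matched for 7 of the 10 genes, and not for Dusp4, Spry4 or Etv4. Dusp4 was the other gene that rose, so windows of genes that rose and fell cannot be contrasted beyond Spry1. Each run below is the 250 bases before the RefSeq start on the gene's own strand, 5' to 3'. For Spred1 this start lies upstream of the gene start given further below. Capitals mark a match to CGGAAG, the core of many ETS sites, or to GGAATG, the core of TEAD sites, searched on both strands together with CACGTG, the E-box of MiT/TFE factors, and TGANTCA, the AP-1 site.
Spry1, chr3:37639697-37639946, plus strand: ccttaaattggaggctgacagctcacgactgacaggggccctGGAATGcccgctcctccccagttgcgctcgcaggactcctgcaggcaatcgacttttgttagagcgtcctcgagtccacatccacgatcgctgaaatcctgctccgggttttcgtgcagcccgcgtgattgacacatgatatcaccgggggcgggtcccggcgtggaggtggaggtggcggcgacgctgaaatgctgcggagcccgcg
Spry2, chr14:105896820-105897069, minus strand: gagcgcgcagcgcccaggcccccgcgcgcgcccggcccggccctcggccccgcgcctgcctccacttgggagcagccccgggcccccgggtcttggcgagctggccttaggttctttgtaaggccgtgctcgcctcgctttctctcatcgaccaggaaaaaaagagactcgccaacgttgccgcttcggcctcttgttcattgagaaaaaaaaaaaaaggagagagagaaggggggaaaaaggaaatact
Spred1, chr2:117120821-117121070, plus strand: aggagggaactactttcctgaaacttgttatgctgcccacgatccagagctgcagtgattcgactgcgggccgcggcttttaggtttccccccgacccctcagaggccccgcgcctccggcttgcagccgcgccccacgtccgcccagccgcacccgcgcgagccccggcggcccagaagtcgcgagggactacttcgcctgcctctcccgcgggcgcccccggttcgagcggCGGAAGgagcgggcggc
The Spry1 window held GGAATG from base -208, counted back from the start, and the Spred1 window held CGGAAG from base -17. The Spry2 window held none of these letters. Of the windows not shown, those of Dusp6 and Spred2, which were not called higher, held CGGAAG from base -62 and -43. Those of Dusp5 and Etv5 held no match. Of 32851 promoter windows of the same length, 13.6% held CGGAAG, 12.6% GGAATG, 6.02% CACGTG and 6.75% TGANTCA, and the matches are descriptions of sequence and not measured binding.

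Spry4, at chr18:38586247-38601415, where small RNA genes are annotated on the opposite strand, had the widest range of the 10 genes, with group means of log2 CPM spanning 3.70. It measured 7.73, 12.2 and 8.98 CPM in EV and fell to 1.39, 1.65 and 4.05 CPM with TAZ4SA (log2 fold change -1.98, SE 0.30, adjusted p = 8.55e-06). YAP5SA lowered it further, to 0.975, 0.638 and 0.950 CPM (-3.50, SE 0.34, adjusted p = 9.29e-09). Neither set of libraries overlapped EV, and TAZ4SA replicate 3 stood above the other TAZ4SA libraries. With YAP-TFE3 it was 3.76, 5.66 and 5.60 CPM (-0.94, SE 0.28, adjusted p = 0.0229), a call lost without EV replicate 2 (0.109) or YAP-TFE3 replicate 1 (0.139). CAMTA1 raised it from 5.92, 5.34 and 6.85 CPM in EVsub to 8.87, 15.8 and 12.3 CPM (1.03, SE 0.27, adjusted p = 0.0489), and this call was lost without any 1 of the 3 EVsub libraries or without CAMTA1 replicate 2 or 3 (0.0672 to 0.233) and with upper-quartile scaling (0.0575), scaling by library totals (0.0758), at least 10 counts in every library (0.0526) or a fit of the 2 groups alone (0.137).

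Both Spred genes fell with the activated proteins. Spred1, at chr2:117121374-117182279, measured 59.5, 67.1 and 60.2 CPM in EV. It was 30.0, 25.0 and 39.5 CPM with TAZ4SA (log2 fold change -0.98, SE 0.12, adjusted p = 6.04e-07) and 16.9, 20.5 and 19.1 CPM with YAP5SA (-1.72, SE 0.12, adjusted p = 8.36e-11). Neither group overlapped EV. With TAZ-CAMTA1 it was 68.9, 76.5 and 79.4 CPM, the highest of all groups and above every EV library, but the difference did not pass (0.27, SE 0.12, adjusted p = 0.113). It did pass against EVsub (61.8, 53.9 and 58.2 CPM), where TAZ-CAMTA1 was higher by 0.37 (SE 0.12, adjusted p = 0.0276).

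Spred2, at chr11:19924375-20024026, showed the most pronounced difference between the activated proteins. EV had 51.0, 64.1 and 63.8 CPM, TAZ4SA 34.5, 33.1 and 42.2 CPM (log2 fold change -0.70, SE 0.12, adjusted p = 2.49e-05) and YAP5SA 10.8, 11.5 and 10.3 CPM (-2.45, SE 0.12, adjusted p = 6.59e-13). The 3 groups did not overlap. YAP-TFE3 also lowered it, to 34.0, 43.1 and 44.6 CPM, all under EV (-0.55, SE 0.11, adjusted p = 0.00157), and this call held whichever library was left out. TAZ-CAMTA1, with 48.8, 58.4 and 52.5 CPM, overlapped EV (-0.16, SE 0.11, adjusted p = 0.333).

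Both ETS factors fell with TAZ4SA, YAP5SA and YAP-TFE3. Etv5, at chr16:22381309-22439719, measured 27.9, 36.6 and 35.0 CPM in EV. TAZ4SA lowered it to 4.81, 2.62 and 7.26 CPM (log2 fold change -2.72, SE 0.27, adjusted p = 3.66e-08), YAP5SA to 4.31, 2.16 and 3.23 CPM (-3.36, SE 0.29, adjusted p = 1.03e-09) and YAP-TFE3 to 9.93, 15.9 and 13.4 CPM (-1.34, SE 0.25, adjusted p = 0.000604). All 9 of these libraries were below every EV library, and each call held whichever library was left out. TAZ-CAMTA1 had 18.3, 22.5 and 21.1 CPM, also below EV, and narrowly missed the threshold (-0.68, SE 0.25, adjusted p = 0.0506), which it passed in DESeq2 (adjusted p = 0.0261). Sub-confluent EVsub cells had 16.4, 30.1 and 19.6 CPM, overlapping EV (-0.59, adjusted p = 0.0908), and the difference between TAZ-CAMTA1 and EVsub was -0.10 (SE 0.25).

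Etv4, at chr11:101769742-101785371, had 7.68, 11.4 and 10.7 CPM in EV. It was 3.42, 3.97 and 5.28 CPM with TAZ4SA (log2 fold change -1.22, SE 0.35, adjusted p = 0.00496), 2.87, 2.65 and 4.37 CPM with YAP5SA (-1.60, SE 0.36, adjusted p = 0.000429) and 2.26, 5.42 and 4.93 CPM with YAP-TFE3 (-1.22, SE 0.34, adjusted p = 0.0168). None of these groups overlapped EV. The YAP-TFE3 call was lost without EV replicate 2 (0.0532), EV replicate 3 (0.0585) or YAP-TFE3 replicate 1 (0.109). TAZ-CAMTA1, with 10.9, 17.0 and 15.2 CPM, overlapped EV and was not called (0.53, SE 0.33, adjusted p = 0.266).

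For YAP-TFE3, the 6 calls against EV thus rested in part on single libraries. With each library left out in turn 2 to 5 of them were called, the fewest without YAP-TFE3 replicate 1, where Spred2 and Etv5 remained. That replicate stood furthest from EV, with a median difference of 1.36 on the log2 scale over the 6 genes, against 0.60 and 0.68 for the others. It was also the furthest over the 2203 genes called with YAP-TFE3, at 1.00 against 0.72 and 0.64.

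The direct comparisons asked whether each fusion protein differed from the activated form of its N-terminal partner. The sources do not settle at which density TAZ-CAMTA1 was collected, and the part of density in its comparisons was not tested. Between TAZ-CAMTA1 and TAZ4SA, 9 of the 10 genes were DE, 7 higher and 2 lower with the fusion, where 54.7% of tested genes were called (26.6% higher, 28.1% lower). Dusp4 and Spry1 were the 2 lower genes (-2.12, SE 0.27, adjusted p = 1.42e-06, and -1.37, SE 0.24, adjusted p = 7.56e-05), with no TAZ-CAMTA1 library reaching a TAZ4SA library. Etv5 was the gene that differed most in the other direction (2.04, SE 0.27, adjusted p = 2.25e-06), followed by Etv4 (1.76, SE 0.35, adjusted p = 0.000245) and Spry4 (1.65, SE 0.30, adjusted p = 9.78e-05). Spred1 was higher by 1.25 (SE 0.12, adjusted p = 4.50e-08), Spry2 by 0.77 and Spred2 by 0.54, all without overlap. Dusp6 overlapped between the groups (0.63, adjusted p = 0.0467) and was not called in a fit of the 2 groups alone (0.0978) or without TAZ4SA replicate 1 or 2 or TAZ-CAMTA1 replicate 2 or 3 (0.0730 to 0.239). Dusp5 did not pass (0.50, SE 0.22, adjusted p = 0.0555), although its libraries did not overlap. It passed under several alternatives, among them DESeq2 (0.0404), RLE (0.0482) and upper-quartile scaling (0.0439) and library totals alone (0.0162). The median over the 10 genes was 0.70 and that over all tested genes 0.00, or 0.17 when scaled by library totals alone, where 62.0% of called genes were higher with the fusion instead of 48.5%.

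Between YAP-TFE3 and YAP5SA, 8 of the 10 genes were DE, 6 higher and 2 lower with the fusion, where 70.9% of tested genes were called (36.4% higher, 34.5% lower). The lower genes were again Dusp4 (-2.23, SE 0.27, adjusted p = 2.36e-07) and Spry1 (-1.12, SE 0.24, adjusted p = 0.000281). Spry4 was higher by 2.56 (SE 0.35, adjusted p = 1.14e-06), and Etv5, Spry2, Spred2 and Spred1 by between 1.80 and 2.02, each with all YAP-TFE3 libraries above all YAP5SA libraries. Dusp5 was higher by 0.76 (SE 0.22, adjusted p = 0.0041). Dusp6 and Etv4 overlapped and were not called (0.11, SE 0.27, adjusted p = 0.722, and 0.38, SE 0.37, adjusted p = 0.363). The same 8 was the count with any library left out. The median over the 10 genes was 1.28 and that over all tested genes 0.05, or 0.41 when scaled by library totals alone, where 67.6% of called genes were higher instead of 51.4%.

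**Figure D3:**
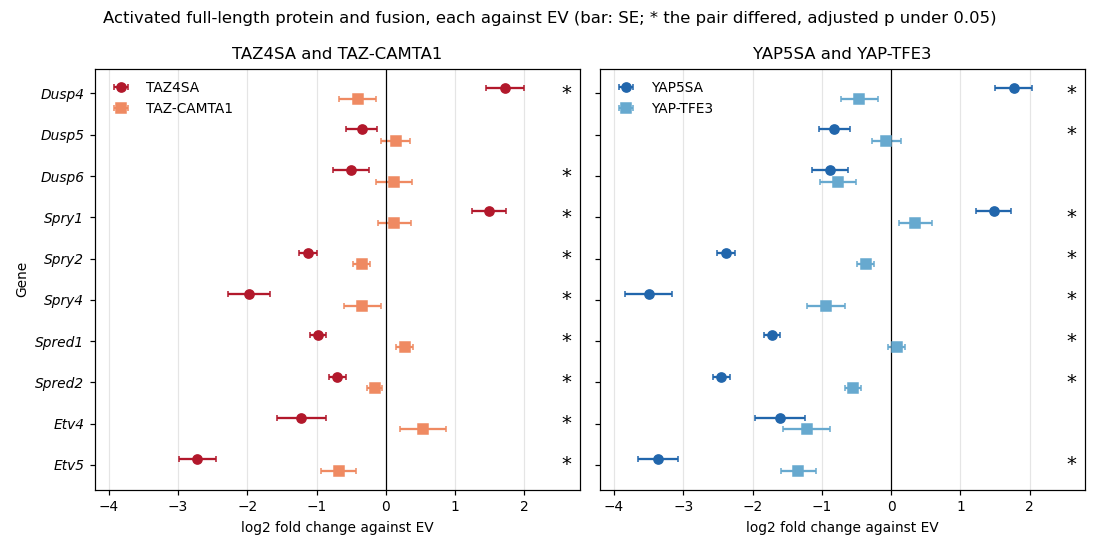
log2 fold change against EV (x) of each of the 10 genes (y) for TAZ4SA and TAZ-CAMTA1 (left) and for YAP5SA and YAP-TFE3 (right), with bars of 1 SE and an asterisk where the direct comparison of the pair had an adjusted p under 0.05. The fusion proteins lie nearer to 0 than the activated full-length proteins for most genes, with Dusp6 and Etv4 as the genes for which YAP-TFE3 and YAP5SA were not told apart.

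The fusion proteins differed from each other in 3 of the 10 genes, all higher with TAZ-CAMTA1, where 11.6% of tested genes were called (5.32% higher, 6.32% lower). These were Etv4 (log2 fold change 1.75, SE 0.34, adjusted p = 0.00146), Dusp6 (0.89, SE 0.26, adjusted p = 0.0281) and Spred2 (0.39, SE 0.11, adjusted p = 0.029), and the libraries of the 2 groups did not overlap for any of them. Etv4 held whichever library was left out. Dusp6 was lost without TAZ-CAMTA1 replicate 2 or 3 or YAP-TFE3 replicate 1 or 3 (0.0513 to 0.158), and Spred2 without TAZ-CAMTA1 replicate 2 or 3 or YAP-TFE3 replicate 1 (0.0727 to 0.190), with library totals alone (0.0740) and with no filter (0.0685). Etv5 was higher with TAZ-CAMTA1 in every library but did not pass (0.65, SE 0.25, adjusted p = 0.095). The part of cell density, which is not settled for TAZ-CAMTA1, was not tested.

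The activated proteins differed in 4 of the 10 genes, all higher with TAZ4SA than with YAP5SA, where 42.4% of tested genes were called (22.8% higher, 19.6% lower). Spred2 was higher by 1.75 (SE 0.12, adjusted p = 3.58e-09), Spry2 by 1.26 (SE 0.13, adjusted p = 4.67e-07) and Spred1 by 0.74 (SE 0.12, adjusted p = 7.59e-05), with no overlap. Spry4 was higher by 1.51 (SE 0.37, adjusted p = 0.0028), and without TAZ4SA replicate 3 this became 0.82 (adjusted p = 0.0859); it also missed the threshold in a fit of the 2 groups alone (0.0507). Dusp4 (-0.05, SE 0.26) and Spry1 (0.02, SE 0.24) overlapped and did not pass. Scaling by library totals alone moved the median of all tested genes from 0.05 to 0.25 and the share of called genes that were higher from 53.8% to 72.6%, and the 4 genes remained higher.

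YAP-TFE3 and full-length TFE3 differed in 3 of the 10 genes, where 22.9% of tested genes were called (14.3% higher, 8.62% lower). Dusp4 was lower with the fusion (-1.63, SE 0.27, adjusted p = 9.03e-05), with no library of 20.7 to 34.7 CPM reaching the 84.5 to 96.4 CPM of TFE3, and Spred2 was lower by a smaller amount (-0.50, SE 0.11, adjusted p = 0.00231). Spry1 was higher with the fusion (0.78, SE 0.25, adjusted p = 0.0251), a call lost without YAP-TFE3 replicate 1 (0.204), TFE3 replicate 2 (0.0728) or TFE3 replicate 3 (0.106). Etv4 (-0.90, SE 0.34, adjusted p = 0.0626) and Etv5 (-0.61, SE 0.25, adjusted p = 0.0856) were lower in every YAP-TFE3 library without passing. Both passed in DESeq2 (0.0261 and 0.0481), without the low-count filter and in a fit of the 2 groups alone.

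Cell density changed 1 of the 10 genes and full-length CAMTA1 changed 2, beside unlike shares of all tested genes. EVsub differed from EV in Spry2 alone, 1 of 10 genes, where 22.1% of tested genes were called (12.5% higher, 9.59% lower), and the median over the 10 genes was -0.16 against 0.02 over all tested genes. Dusp4 (-0.63, adjusted p = 0.0979) and Spry4 (-0.67, adjusted p = 0.082) were lower in all EVsub libraries without passing. The 7 proliferation markers, genes of DNA replication and mitosis, were all higher in EVsub, and their sum was 690 to 1940 CPM there against 357 to 663 CPM in EV, 695 to 989 CPM with TAZ-CAMTA1 and 300 to 735 CPM with TAZ4SA. With TAZ-CAMTA1 3 of the 7 were called higher against EV. Their part in the results was not tested. CAMTA1 raised Dusp4 and Spry4 over EVsub, 2 of 10 genes where 2.18% of tested genes were called (1.29% higher, 0.891% lower), and with each library left out 0 or 1 of these was called in edgeR. At an unadjusted p under 0.05 there were 2 in each of the removals that left none. TAZ-CAMTA1 differed from EVsub in Spry2 and Spred1, both higher, where 21.4% of tested genes were called (11.6% higher, 9.81% lower).

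Per kilobase of exon, the order of levels in EV ran from Spry2 (17.9 ± 1.75 CPM per kb, SD, n = 3) through Dusp4 (14.6 ± 1.35), Spred2 (12.9 ± 1.63), Spred1 (9.18 ± 0.616), Etv5 (8.09 ± 1.13), Dusp6 (7.59 ± 0.843), Dusp5 (7.16 ± 2.53), Spry1 (5.20 ± 0.957) and Etv4 (3.20 ± 0.638) to Spry4 (2.03 ± 0.488). With YAP5SA, Dusp4 (49.4 CPM per kb) and Spry1 (14.4 CPM per kb) led this order and Spry2 had dropped to 3.42 CPM per kb. Across groups, YAP5SA had the lowest mean CPM for 8 of the 10 genes, all but Dusp4 and Spry1. Its libraries were apart from those of the next group for Dusp5, Spry2, Spry4, Spred1 and Spred2, and overlapped those of the next group for Dusp6, Etv4 and Etv5. For Dusp4 and Spry1, TAZ4SA and YAP5SA held the highest mean levels and overlapped each other.

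Profiles over the 8 group means were compared by the root-mean-square difference of centred log2 CPM, as a description. The closest pairs within the 10 genes were Dusp5 with Dusp6 (0.25) and Spry2 with Spred1 (0.25), then Spry2 with Spred2 (0.30), and the 2 genes that rose, Dusp4 and Spry1, were 0.75 apart. Among the 11286 tested genes that averaged 50 counts or more, the gene nearest to Dusp4 was Tnfrsf21 (0.31), to Spry1 Ifi35 (0.10), to Spry2 Zfp354c (0.15), to Spred1 Stag1 (0.09), to Spred2 Polr3f (0.14), to Etv4 Pole2 (0.28) and to Etv5 Fjx1 (0.23). Dusp5, whose group means spanned only 1.10, was nearest to Rpa3 (0.06), Dusp6 to Slc6a6 (0.16), and Spry4, with the widest span, to 3110039I08Rik (0.21).

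Other regulators of the same loop moved in both directions. Of 7 tested relatives of the feedback genes, 4 were DE with TAZ4SA (1 higher, 3 lower), 7 with YAP5SA (2 higher, 5 lower), 2 with TAZ-CAMTA1, both higher, and 3 with YAP-TFE3 (1 higher, 2 lower), where 57.5%, 71.2%, 21.5% and 15.3% of all tested genes were called. Il17rd, which encodes the FGF signalling inhibitor Sef, fell from 53.2 ± 19.9 CPM in EV to 9.29 ± 0.900 CPM with TAZ4SA (log2 fold change -2.51, SE 0.25, adjusted p = 2.48e-08), 11.5 ± 1.70 CPM with YAP5SA (-2.21, SE 0.24, adjusted p = 4.17e-08) and 25.5 ± 2.17 CPM with YAP-TFE3 (-1.06, SE 0.23, adjusted p = 0.00215). It was also lower in EVsub, at 21.9 ± 5.26 CPM (-1.28, SE 0.23, adjusted p = 0.000431), and lower again with CAMTA1, at 9.65 ± 2.72 CPM (-1.19 against EVsub, SE 0.24, adjusted p = 0.00942). With TAZ-CAMTA1 it was 38.1 ± 3.50 CPM and did not pass (-0.48, adjusted p = 0.135). Etv1, the third PEA3 factor, fell from 12.7 ± 1.20 CPM to 2.97 ± 1.89 CPM with TAZ4SA (-2.06, adjusted p = 1.29e-05) and to 0.443 ± 0.346 CPM with YAP5SA (-4.91, adjusted p = 1.13e-09), and to 6.17 ± 1.49 CPM with YAP-TFE3 (-1.04, adjusted p = 0.0193). Dusp9, an ERK phosphatase, rose with all 4 of these proteins, from 2.55 ± 0.355 CPM in EV to 7.51 ± 0.452 CPM with TAZ4SA (1.56, adjusted p = 0.000247), 9.43 ± 2.89 CPM with YAP5SA (1.88, adjusted p = 1.58e-05), 10.5 ± 2.50 CPM with TAZ-CAMTA1 (2.04, adjusted p = 5.18e-05) and 15.0 ± 6.32 CPM with YAP-TFE3 (2.55, adjusted p = 5.50e-06). In EVsub it was higher as well, at 6.41 ± 2.34 CPM (1.33, adjusted p = 0.00411).

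Of 4 tested phosphatases aimed mainly at p38 and JNK, or at several MAP kinases, 3 were higher and 1 lower with TAZ4SA, 3 were higher with YAP5SA, and 2 were higher and 1 lower with each fusion protein, beside the same shares of all tested genes. Dusp8 went from 1.31 ± 0.317 CPM in EV to 10.1 ± 3.74 CPM with TAZ4SA (log2 fold change 2.95, adjusted p = 5.39e-08), 12.5 ± 2.17 CPM with YAP5SA (3.26, adjusted p = 4.05e-09), 18.6 ± 2.93 CPM with TAZ-CAMTA1 (3.83, adjusted p = 1.39e-08) and 3.71 ± 0.216 CPM with YAP-TFE3 (1.51, adjusted p = 0.0015). In EVsub it was 2.63 ± 0.333 CPM (1.01, adjusted p = 0.025). Dusp1, an immediate early phosphatase, went from 23.6 ± 12.1 CPM to 117 ± 38.5 CPM with TAZ4SA (2.31, adjusted p = 6.02e-07), 110 ± 20.9 CPM with YAP5SA (2.22, adjusted p = 4.16e-07), 71.6 ± 4.19 CPM with TAZ-CAMTA1 (1.60, adjusted p = 0.000216) and 56.6 ± 9.74 CPM with YAP-TFE3 (1.26, adjusted p = 0.00259).

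Among other genes known to respond to ERK, most called genes were higher with TAZ4SA, YAP5SA and TAZ-CAMTA1 and in EVsub, and some were lower. Of 15 tested, 8 were higher and 3 lower with TAZ4SA, the same counts with YAP5SA, 8 higher and 1 lower with TAZ-CAMTA1, and 2 higher and 1 lower with YAP-TFE3. Over all tested genes the called shares were 57.5%, 71.2%, 21.5% and 15.3% in the same order, and the shares called higher 31.1%, 36.3%, 12.5% and 10.6%. The median log2 fold change of the 15 genes was 0.98, 1.03, 0.68 and 0.00. Over all tested genes it was 0.05, 0.01, 0.00 and 0.00. In EVsub against EV 7 of the 15 were higher and 1 lower, where 22.1% of tested genes were called (12.5% higher, 9.59% lower). Their median there was 0.78, against 0.02 over all tested genes. The same 8 genes were higher with TAZ4SA and with YAP5SA, namely Epha2, Epha4, Plaur, Phlda1, Junb, Myc, Ier3 and Fosl1. The 3 lower genes with TAZ4SA were Egr1, Egr2 and Egr3, immediate early zinc finger factors of the EGR family. Egr1 was 136 ± 20.9 CPM in EV, 55.0 ± 25.8 CPM with TAZ4SA (log2 fold change -1.31, adjusted p = 0.00781) and 6.90 ± 1.68 CPM with YAP5SA (-4.29, adjusted p = 3.9e-08), and was not called with either fusion. Egr2 was 13.6 ± 1.63 CPM in EV and 0.413 ± 0.187 CPM with TAZ4SA (log2 fold change -4.98, SE 0.39, adjusted p = 9.1e-10), and with YAP5SA no library had more than 2 counts, so that no fold is given. It was also called lower with TAZ-CAMTA1 (4.47 ± 1.36 CPM, -1.60, adjusted p = 0.000242), with YAP-TFE3 (6.93 ± 2.24 CPM, -0.96, adjusted p = 0.0176) and in EVsub (7.39 ± 0.971 CPM, -0.88, adjusted p = 0.0235). Egr3 was 4.10 ± 0.765 CPM in EV and 0.452 ± 0.186 CPM with TAZ4SA (-3.10, SE 0.57, adjusted p = 7.81e-05), and 0.168 ± 0.0775 CPM with YAP5SA, where no library had more than 4 counts. Epha2, a receptor tyrosine kinase, rose from 14.5 ± 2.94 CPM in EV to 103 ± 20.6 CPM with TAZ-CAMTA1 (2.83, adjusted p = 2.34e-07), 79.7 ± 37.4 CPM with TAZ4SA (2.47, adjusted p = 2.37e-07) and 82.3 ± 16.1 CPM with YAP5SA (2.51, adjusted p = 7.18e-08). Cyclin D1 (Ccnd1) rose from 54.5 ± 21.5 CPM to 376 ± 75.3 CPM with TAZ-CAMTA1 (2.79, adjusted p = 9.29e-06). Both were also higher in EVsub than in EV, Epha2 at 36.7 ± 12.1 CPM (1.35, adjusted p = 0.00141) and Ccnd1 at 124 ± 42.1 CPM (1.19, adjusted p = 0.0192).

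Of 20 tested genes of the cascade from the receptor adaptors to the RSK kinases, 16 were DE with TAZ4SA (9 higher, 7 lower), 15 with YAP5SA (7 higher, 8 lower), 6 with TAZ-CAMTA1 (4 higher, 2 lower) and 4 with YAP-TFE3 (3 higher, 1 lower). The corresponding shares of all tested genes were 57.5%, 71.2%, 21.5% and 15.3%. In a fit of the TAZ4SA and EV libraries alone the first of these counts was 8. Rasa1, a GTPase-activating protein that turns RAS off, fell from 74.0 ± 13.2 CPM in EV to 21.6 ± 11.5 CPM with TAZ4SA (log2 fold change -1.76, adjusted p = 2.16e-06) and 14.2 ± 1.21 CPM with YAP5SA (-2.38, adjusted p = 1.89e-08). Mapk3, which encodes ERK1, rose from 154 ± 17.4 CPM to 272 ± 86.0 CPM with TAZ4SA (0.82, adjusted p = 9.46e-05) and 302 ± 15.9 CPM with YAP5SA (0.98, adjusted p = 6.89e-06). Ksr1, a scaffold of the cascade, fell from 31.8 ± 5.01 CPM to 11.0 ± 1.33 CPM with YAP5SA (-1.53, adjusted p = 5.82e-08), and was also called lower with TAZ4SA (-0.44, adjusted p = 0.0264) and TAZ-CAMTA1 (-0.51, adjusted p = 0.028).

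**Figure D4:**
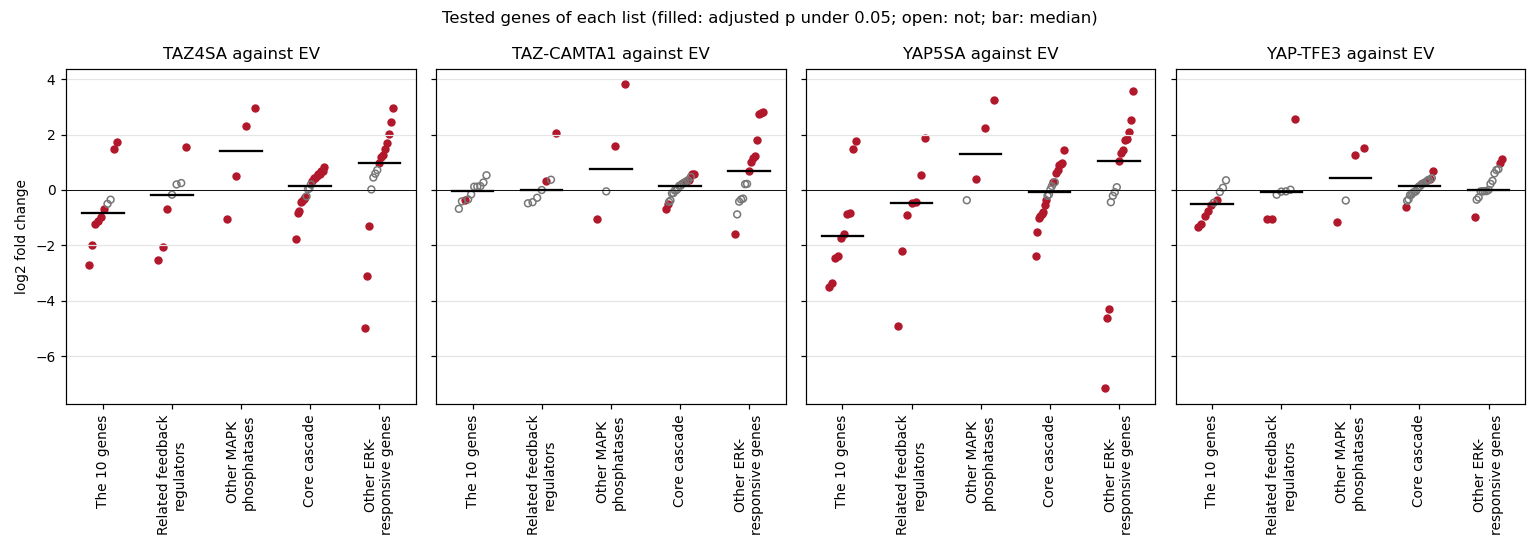
log2 fold change (y) of the tested genes of each list (x) for TAZ4SA, TAZ-CAMTA1, YAP5SA and YAP-TFE3 against EV, filled where the adjusted p was under 0.05 and with a bar at the list's median. The 10 feedback genes have medians of -0.84, -0.02, -1.66 and -0.51 in panel order, and the lowest point with YAP5SA is Egr2, with at most 2 counts in a library.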

How the data were processed

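RNA-Seq of 24 NIH 3T3 libraries, 3 for each of 8 groups, was analysed. Titles gave each sample its group and replicate number; for YAP-TFE3 replicate 3 another label names a different number. The authors deposited unnormalized counts of reads per Ensembl gene. By the paper's methods they sequenced stranded libraries of polyadenylated RNA and processed reads with bcbio-nextgen, Hisat2 and mm10 with Ensembl release 97. The program that made the counts and its use of strand are not given in the sources used here, so genes overlapping on opposite strands may have shared reads. Library totals of 16471181 to 30132586 counts limit the precision of low genes such as Spry4. No library repeated another.

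The quasi-likelihood test of edgeR 4.0.16, run in R 4.3.3 with TMM factors, was applied to the 14361 genes that averaged 5 counts or more, in one fit of all libraries with a coefficient per group, and Benjamini-Hochberg adjustment over all tested genes. Genes with an adjusted p under 0.05 were called. Standard errors are the log2 fold change over the square root of F. Triplicate lines were transduced separately by the methods. The p-values rest on the spread between such lines, estimated from all 8 groups together, which can differ from that of the 2 groups compared. Symbols, coordinates and exon lengths came from GENCODE M21 of GRCm38, which matched 37607 of 39017 identifiers, and promoters from RefSeq GRCm38.p6, which matched 7 of the 10 genes (Dusp4, Spry4 and Etv4 were not matched). Of a further list of marker genes, only its tested member Itgam is reported here. Spry3 was not analysed here, and Dusp2 and Rps6ka1 were under the limit for testing.

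All 10 genes are named. From each other list at most the 2 called genes with the largest absolute log2 fold change in a comparison are named, and of like profiles the nearest. A gene so named is given in some of the other groups too, but not in all of them. Egr1, Epha4, Junb, Itgam, Krt14, Cdh1, Kdr, Cdh5, Pdgfra, Pdgfrb, Thy1, Vim and Col1a1 were named after their values were seen. The 10 genes and all lists were chosen with earlier results of these data known. Alternatives were DESeq2 1.42.0, RLE, upper-quartile and library-total scaling, a fit of the compared groups alone, replicate as a block, no low-count filter (24737 genes), a minimum of 10 counts per library (11461 genes), a minimum change of 1 on the log2 scale, and removal of each library. The use of EVsub as the control of TAZ-CAMTA1 was added after seeing the data. The test was also run on simulated counts in which a small set of genes changed, in TAZ-CAMTA1 alone. That setting differs from the broad changes with TAZ4SA and YAP5SA, and no result here rests on it. Tables and plots were made in Python 3.11.15 (numpy 2.4.6, pandas 2.3.3, matplotlib 3.10.9).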

Additional observations from a re-analysis of the deposited data

How the results depend on the processing

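Of 57 calls of a feedback gene in 12 comparisons, 44 held under every alternative and with every library left out, apart from a required change of 1 or more on the log2 scale, and no gene called under any setting changed direction between settings with the same control group. Of 44 values called under no setting, 18 changed sign somewhere, each at most 0.23 from 0 in log2 fold change as reported. The counts for TAZ4SA and YAP5SA against EV and for the fusions against these proteins stayed within 1.5 times of those reported.

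When a change of 1 or more on the log2 scale was required, 0 genes instead of 1 were called for TAZ-CAMTA1 against EV (3 at an unadjusted p under 0.05), 2 instead of 6 for YAP-TFE3, 1 instead of 2 for TFE3, 0 instead of 1 for EVsub (4 at an unadjusted p under 0.05), 1 instead of 3 between the fusions and 1 instead of 3 for YAP-TFE3 against TFE3. For TAZ-CAMTA1 against EV, RLE or upper-quartile scaling, at least 10 counts in every library and DESeq2 each gave 2, the second being Etv5, the fit of the 2 groups alone gave 3, and EVsub as the control gave 2. The fit of the 2 groups alone gave 4 for TFE3, 2 for EVsub, 8 for YAP-TFE3 against TFE3 and 0 for CAMTA1 against EVsub in edgeR (2 at an unadjusted p under 0.05). No filter gave 4 for EVsub and 5 for YAP-TFE3 against TFE3, for which DESeq2 also gave 5. For CAMTA1, upper-quartile scaling, library totals and at least 10 counts in every library each gave 1. The cause of these shifts was not tested.

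With each library left out in turn, the counts ranged from 8 to 9 for TAZ4SA, 0 to 1 for TAZ-CAMTA1, 10 to 10 for YAP5SA, 2 to 5 for YAP-TFE3, 1 to 2 for TFE3 and 1 to 2 for EVsub (2 without EVsub replicate 2, with Etv5), 0 to 1 for CAMTA1, 8 to 10 for TAZ-CAMTA1 against TAZ4SA, 8 to 8 for YAP-TFE3 against YAP5SA, 1 to 3 between the fusions, 3 to 5 between the activated proteins and 2 to 3 for YAP-TFE3 against TFE3.

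With the replicate number as a block, the counts were the same in all 12 comparisons, for example 8 for TAZ4SA, 10 for YAP5SA and 6 for YAP-TFE3 against EV. In no comparison did all 3 same-numbered pairs correlate above 0.1 in their deviations from the group means, so the numbers were not taken as a pairing.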
